A study of Homo sapiens with 4 samples.

Results

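ATF7IP knockdown was compared with Control in sorafenib-treated cells, gene by gene, with the fold of each of 2 ATF7IP hairpins given separately. The genes described had a mean of at least 1 CPM (the count scaled to a common library size) over the Control library and both ATF7IP knockdown libraries, which left 13137 of the 28278 genes in the table. Of protein-coding genes, CITED1 at a mean of 1.001 CPM was just inside that limit and HOXD10 at 0.998 CPM just outside it. The cells are labelled HepG2, a human liver cancer line. According to the labels, Control cells carried a Control shRNA delivered by lentivirus, the ATF7IP knockdown libraries carried ATF7IP shRNA-1 (hairpin 1) or ATF7IP shRNA-2 (hairpin 2), and a further library carried a SETDB1 shRNA. Every group, Control included, had received 10 µM sorafenib for 48 hours, so values here are differences among drug-treated cells. Each shRNA has 1 library, and the labels do not say whether the infected cells were pools or clones.

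ATF7IP is a nuclear protein that binds and stabilises SETDB1, an enzyme that methylates lysine 9 of histone H3. Together with TRIM28 and the HUSH complex they keep retroelements, germline genes and other loci silent. Sorafenib inhibits RAF kinases and several receptor tyrosine kinases, and in liver cancer cells it can also trigger ferroptosis, an iron-dependent death through lipid peroxidation. The title of the series links ATF7IP to ferroptosis, CYB5R2 and PARK7.

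The library totals were 70236882 counts in Control, 71225287 in hairpin 1 and 73791097 in hairpin 2. Genes that define liver and hepatoma cells were at or near 0 in all of them. Of 20 such markers, 11 were at 0 counts in Control and both hairpins, among them ALB, AFP, APOB, TTR and GPC3, and the highest level of any of the 20 was 0.378 CPM. Their summed level was 0.978 CPM in Control, 0.836 in hairpin 1 and 0.951 in hairpin 2, so the libraries labelled HepG2 did not carry the hepatocyte program. They did carry KRT7, an epithelial keratin, at 1808, 1871 and 1007 CPM, and COL3A1, a fibrillar collagen, at 335, 191 and 155 CPM, in the order Control, hairpin 1, hairpin 2, which all sets of 3 values below follow. Other epithelial markers were uneven. SFN was at 94.8, 101 and 71.3 CPM and LAMB3 at 210, 144 and 154 CPM. KRT5, KRT6A and KRT13 were at 0 counts in each, KRT19 was at 0.0575, 0 and 0 CPM, and EPCAM at 0, 0.113 and 0.104 CPM. Markers of endothelial cells summed to 1.88, 1.32 and 1.30 CPM. Those of blood and Kupffer cells summed to 22.8, 25.3 and 27.96 CPM. CD68 made up most of that sum, at 21.9, 24.2 and 25.9 CPM, while the leukocyte gene PTPRC was at 0.23, 0 and 0.0521 CPM. The 11 stellate and fibroblast markers summed to 519, 283 and 254 CPM, with 8 of 11 above 12 counts in at least 1 of these libraries and PDGFRA at 0 in all of them. COL3A1 and LUM made up most of that sum in Control and are among the matrix genes described below, so the sum is no separate measure of them. Among other markers of the list, PDGFRB and DCN lay further under Control than COL3A1 did. PDGFRB was at 6.599, 2.48 and 2.05 CPM and DCN at 12.8, 4.68 and 5.303 CPM. FAP was at 31.9, 17.9 and 26.1 CPM. Differences were smaller in COL1A1 at 31.2, 27.7 and 23.5 CPM, ACTA2 at 18.9, 12.96 and 15.8 CPM and THY1 at 0.359, 0.269 and 0.313 CPM. Whether the share of such cells played a part in the matrix results was not tested.

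The targeted gene, ATF7IP (chromosome 12, 14365682 to 14502930), was at 59.1 CPM in Control, 18.3 in hairpin 1 and 18.8 in hairpin 2. The hairpins lay close together and far under Control, with log2 differences of −1.69 and −1.65. The fitted log2 fold change −1.67 ± 0.24, edgeR adjusted p = 0.0571 missed the threshold of 0.05, and it ranged from 9.49e-06 to 0.208 over 7 alternatives, of which 4 called it. SETDB1, the enzyme that ATF7IP binds, was at 47.7, 52.1 and 46.8 CPM. None of the other 18 measured genes of the SETDB1, TRIM28 and HUSH machinery was 1.5-fold from Control in both hairpins: TRIM28, the corepressor that recruits SETDB1, was at 326, 391 and 288 CPM, and MORC2, an ATPase that works with HUSH, at 97.8, 99.7 and 98.7 CPM. MPHOSPH8, the HUSH subunit that reads methylated lysine 9, was at 21.97, 23.8 and 31.6 CPM. These 3 examples were chosen after their values were seen. CYB5R2 fell outside the 13137 genes, its counts being 5, 36 and 86 in the order above. PARK7, which encodes the redox protein DJ-1, was at 246, 333 and 282 CPM (log2 fold change 0.32 ± 0.27, edgeR adjusted p = 0.828).

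At 1.5-fold and at 2-fold more genes were lower than higher than Control, while at 3-fold in both hairpins 49 were higher and 43 lower. Against Control, 260 genes were at least 2-fold higher and 373 at least 2-fold lower with hairpin 1, and 274 and 486 with hairpin 2. In both hairpins at once, 132 genes (1% of 13137) were at least 2-fold higher and 197 (1.5%) at least 2-fold lower, 2.5% in all. At 1.5-fold the counts were 457 higher (3.48%) and 709 lower (5.4%), 1166 or 8.88% in all, and the shares for each direction are the background for the gene groups below. The median over all 13137 genes was 0.0024 in hairpin 1 and 0.0026 in hairpin 2 on the log2 scale. Both folds of a gene use the same Control library, so an effect of knockdown and a departure of that library cannot be told apart by their agreement.

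**Figure D1:**
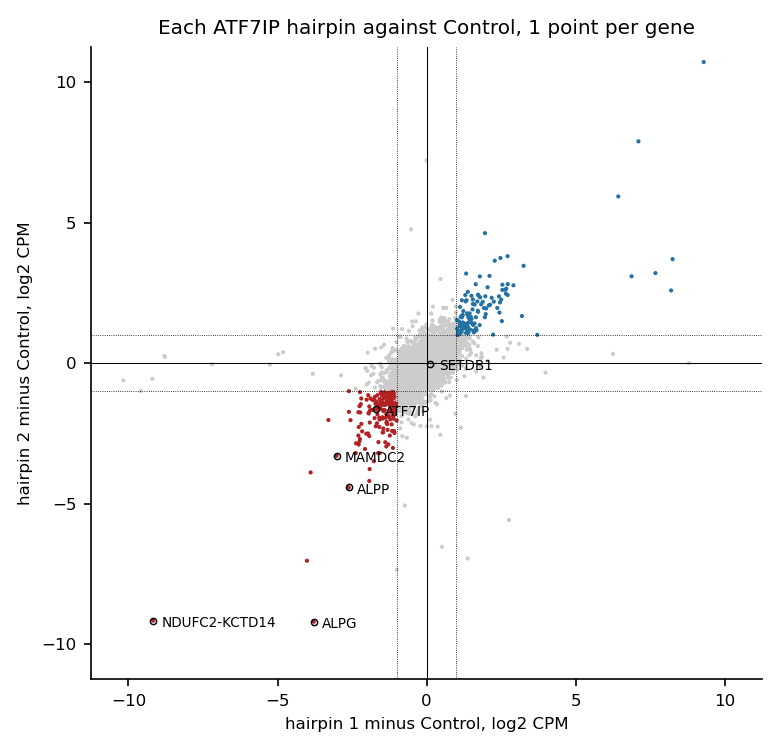
Log2 CPM of hairpin 1 minus Control (x axis) against hairpin 2 minus Control (y axis), 1 point for each of the 13137 genes. Blue points are the 132 genes at least 2-fold higher and red points the 197 at least 2-fold lower in both hairpins, dotted lines mark 2-fold, and both axes share the Control library.

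The edgeR quasi-likelihood test, whose only residual is the spread between the 2 hairpin libraries, called 13 of 16900 genes tested (0.0769%), 3 higher (0.0178%) and 10 lower (0.0592%). Of these, 11 belonged to the 13137 genes, with 3 higher and 8 lower. At an unadjusted p under 0.05 it had 1511 genes. The 6 protein-coding genes that fell and were well measured encode a secreted matrix protein, a receptor, a membrane-binding protein, a transcription factor, a protease and a protease inhibitor, and each lay far under Control in both hairpins.

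MAMDC2 (chromosome 9, 70043581 to 70226972), a secreted proteoglycan of the extracellular matrix, had log2 differences of −3.02 and −3.30, the widest of the 6. It was at 50.98, 6.28 and 5.15 CPM, so Control exceeded hairpin 1 by 8.09-fold and hairpin 2 by 9.86-fold (log2 fold change −3.16 ± 0.27, edgeR adjusted p = 0.00801). TGFBR2 (chromosome 3, 30606356 to 30694142), the receptor subunit that binds TGF-beta first, was at 58.02, 12.7 and 12.9 CPM and fell by nearly the same amount in both hairpins, with −2.19 and −2.17 (log2 fold change −2.18 ± 0.25, edgeR adjusted p = 0.024). For the annexin gene ANXA1 (chromosome 9, 73151865 to 73170393), whose product binds membranes in the presence of calcium, the levels were 183, 45.05 and 32.01 CPM and the differences −2.02 and −2.52 (log2 fold change −2.25 ± 0.27, edgeR adjusted p = 0.0364). ELF3 (chromosome 1, 202010587 to 202017183), a transcription factor of the ETS family found in epithelia, was at 67.98, 18.1 and 15.7 CPM, with differences of −1.91 and −2.12 (log2 fold change −2.01 ± 0.25, edgeR adjusted p = 0.0426). In all 4 genes both hairpins lay under Control. The test favours genes whose hairpins lie close together, so closeness in called genes is no separate support.

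TIMP3 (chromosome 22, 32801705 to 32863041), a matrix-bound metalloproteinase inhibitor that lies inside SYN3, was at 168, 44.4 and 27.8 CPM and differed by −1.92 and −2.60 (log2 fold change −2.22 ± 0.30, edgeR adjusted p = 0.0497). The membrane-type metalloproteinase gene MMP24 (chromosome 20, 35226690 to 35276998), which shares its locus with the antisense locus MMP24-AS1-EDEM2, was at 40.5, 10.3 and 7.09 CPM and differed by −1.96 and −2.51 (log2 fold change −2.22 ± 0.30, edgeR adjusted p = 0.0497). DAPP1, an adaptor of lymphocyte signalling, was called lower but near the limit of detection, with 202, 12 and 13 counts (log2 fold change −4.08 ± 0.54, edgeR adjusted p = 0.0497). MAMDC2 was called in 6 of 7 alternative tests, which here leave out the removal of read-through loci. TGFBR2, ANXA1, ELF3, TIMP3 and MMP24 were each called in 4 of 7, and lost the call with DESeq2 size factors, with no filter on low counts and with limma-trend.

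**Figure D2:**
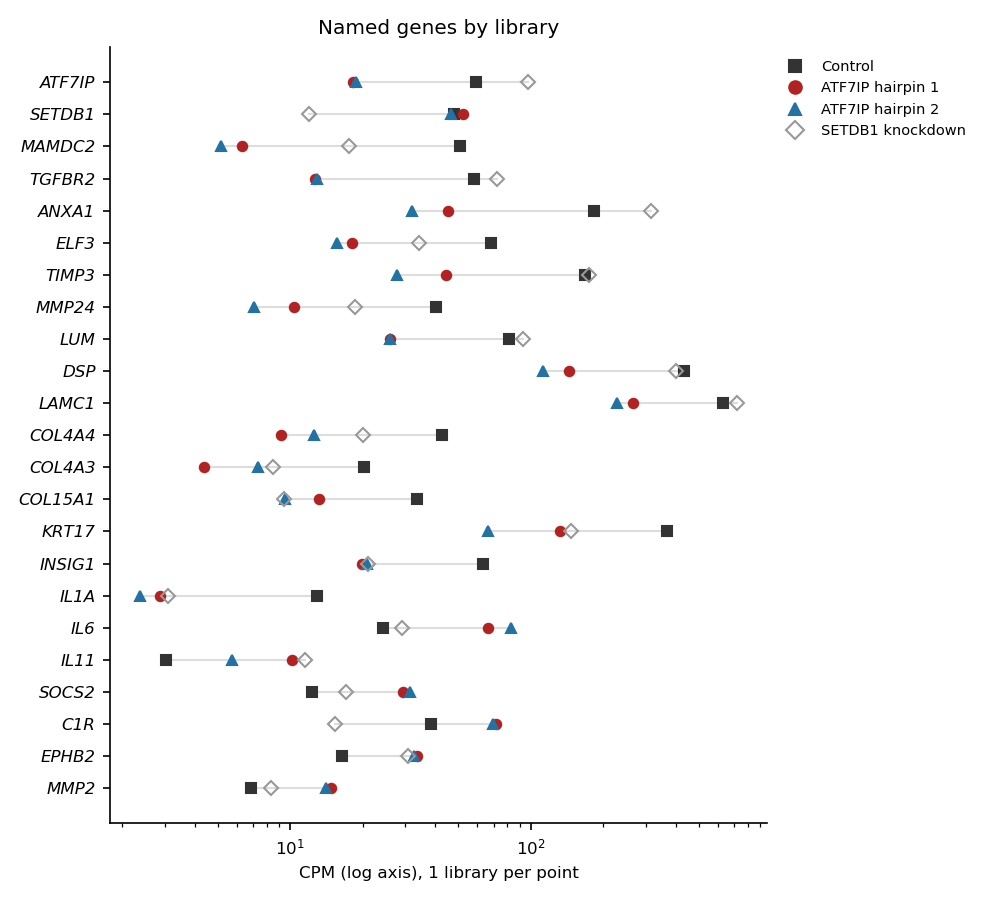
CPM on a log axis for named genes, 1 point per library, with squares for Control, circles and triangles for the ATF7IP hairpins and open diamonds for SETDB1 knockdown. In TGFBR2, LUM and LAMC1 both hairpins lie under Control while the SETDB1 knockdown library lies above it.

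Beyond the called genes, 51 lists of genes were described by how many members were at least 1.5-fold from Control in the same direction in both hairpins. Of the 48 lists with at least 10 measured members, 29 had a share of lower members above the 5.4% background and 14 a share of higher members above 3.48%. In a short list 1 member is enough to pass. The insulin-like growth factor system did so with 1 lower of 10 measured (10%), and complement with 1 higher of 13 (7.69%). How many lists pass therefore depends on their size and is no result about the lists. In 11 of the 51 lists no member passed in either direction. The lists share members and were not tested as sets.

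The TGF-beta pathway carries signals from secreted ligands through paired serine-threonine kinase receptors to SMAD proteins, which switch on matrix genes. Of its 37 measured genes, 1 was higher and 10 were lower in both hairpins (2.7% and 27%), with medians of −0.20 and −0.38. Among ligands, INHBB, an activin subunit, was at 8.67, 3.799 and 2.68 CPM, and TGFB2 at 27.9, 16.6 and 15.7 CPM. TGFB3 was higher instead, at 2.33, 5.03 and 5.84 CPM, while TGFB1, the founding ligand, was at 46.8, 64.7 and 52.6 CPM and not 1.5-fold from Control in either hairpin.

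Receptors differed from each other. Beside TGFBR2, the co-receptor TGFBR3, or betaglycan, was lower at 52.96, 17.8 and 21.8 CPM (log2 fold change −1.42 ± 0.26, edgeR adjusted p = 0.139), and the activin receptor ACVR1B at 37.4, 21.8 and 20.2 CPM. TGFBR1, the partner kinase of TGFBR2, was at 146, 107 and 121 CPM, not 1.5-fold from Control. The transducer SMAD3 was at 60.2, 44.8 and 46.8 CPM, and the feedback genes SMAD7, SKIL and PMEPA1 were not 1.5-fold from Control in both hairpins. Of the target genes, TIMP3, THBS1, COL4A1 and TAGLN were lower in both. CCN2 and CCN1, matricellular targets of TGF-beta and YAP, were low only in hairpin 2, with CCN2 at 124, 108 and 45.6 CPM and CCN1 at 651, 484 and 217 CPM. Apart from TGFBR2, TGFBR3, TIMP3, INHBB, TGFB2 and TAGLN, the genes named here by role were chosen after their values were seen.

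**Figure D3:**
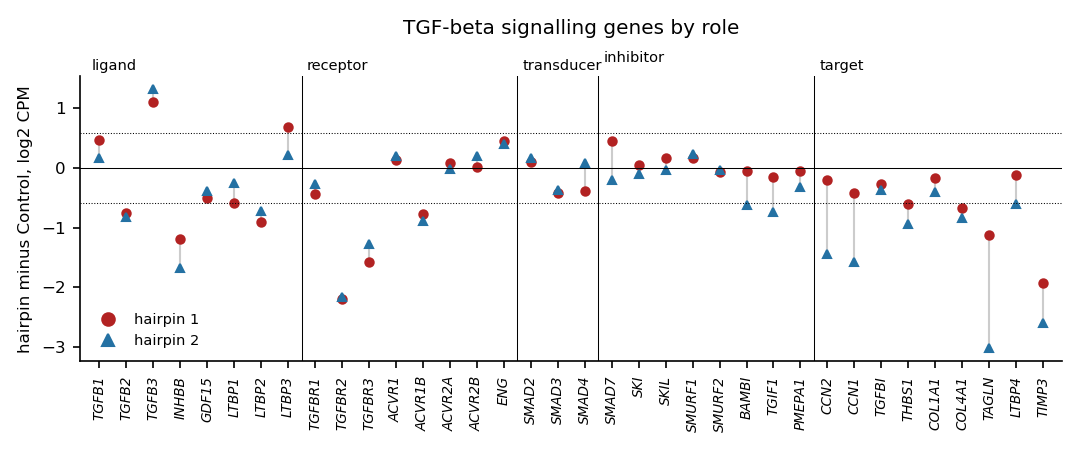
Log2 CPM of each hairpin minus Control for measured TGF-beta signalling genes (not all are drawn), ordered by role, with circles for hairpin 1, triangles for hairpin 2 and dotted lines at 1.5-fold. TGFBR2 has −2.19 and −2.17, and TAGLN shows the widest gap between hairpins among the targets, −1.13 and −3.02.

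Most matrix genes were not 1.5-fold from Control in both hairpins, and of those that were, more were lower than higher. Of 20 measured collagen chains, 0 were higher and 7 were lower in both hairpins (0% and 35%), with medians of −0.34 and −0.55. COL4A4 and COL4A3 encode basement membrane collagen chains that assemble together, and their genes are neighbours on chromosome 2. COL4A4 (chromosome 2, 226967360 to 227164488, overlapping RHBDD1) was at 42.7, 9.101 and 12.6 CPM, with −2.23 and −1.76 (log2 fold change −1.98 ± 0.29, edgeR adjusted p = 0.0571), and COL4A3 was at 20.3, 4.38 and 7.35 CPM, with −2.21 and −1.46 (log2 fold change −1.79 ± 0.36, edgeR adjusted p = 0.159). COL15A1, another basement membrane zone collagen, was at 33.5, 13.1 and 9.48 CPM (log2 fold change −1.57 ± 0.30, edgeR adjusted p = 0.15), and COL3A1 was lower by −0.82 and −1.12. The ubiquitous chain COL4A2, chosen after its values were seen, was at 642, 517 and 419 CPM and not 1.5-fold lower in both.

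Among small proteoglycans and matrix glycoproteins, 1 was higher and 7 were lower in both hairpins (4.76% and 33.3%), with medians of −0.53 and −0.57, of 21 measured. LUM (chromosome 12, 91102629 to 91111494), which encodes the collagen-binding proteoglycan lumican, was at 81.5, 25.98 and 25.9 CPM, with −1.65 and −1.65 (log2 fold change −1.65 ± 0.23, edgeR adjusted p = 0.0571). DCN, which encodes the related decorin, differed by −1.45 and −1.27 (log2 fold change −1.36 ± 0.31, edgeR adjusted p = 0.194), and FN1, fibronectin, by −0.78 and −1.15 (log2 fold change −0.96 ± 0.26, edgeR adjusted p = 0.283). LAMC1 (chromosome 1, 183023420 to 183145592), the gamma chain shared by most laminins, was at 627, 265 and 228 CPM (log2 fold change −1.35 ± 0.27, edgeR adjusted p = 0.159), while the alpha chain LAMA1 was higher, at 51.8, 85.1 and 108 CPM (log2 fold change 0.90 ± 0.27, edgeR adjusted p = 0.333). Of 21 measured integrins and laminins, 1 was higher and 3 were lower in both hairpins (4.76% and 14.3%), with medians of −0.16 and −0.10. Of 27 measured matrix proteases and inhibitors, 2 were higher and 5 were lower in both hairpins (7.41% and 18.5%), with medians of −0.14 and −0.20: ADAMTS1, a secreted protease, was at 69.03, 23.7 and 27.05 CPM (log2 fold change −1.45 ± 0.25, edgeR adjusted p = 0.112), and the gelatinase gene MMP2 was higher, at 6.84, 14.8 and 14.1 CPM (log2 fold change 1.08 ± 0.31, edgeR adjusted p = 0.315).

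Keratins form the intermediate filaments of epithelial cells and desmosomes tie those filaments together between neighbours. Of 15 measured keratin and desmosome genes, 0 were higher and 6 were lower in both hairpins (0% and 40%), with medians of −0.34 and −0.84. DSP (chromosome 6, 7541671 to 7586714), which encodes desmoplakin and links filaments to the desmosome, was at 433, 144 and 112 CPM, with −1.59 and −1.95 (log2 fold change −1.76 ± 0.27, edgeR adjusted p = 0.0608). KRT17 was at 368, 132 and 66.2 CPM, lower in both but further in hairpin 2 (log2 fold change −1.89 ± 0.37, edgeR adjusted p = 0.159). PPL, which encodes periplakin, was at 48.3, 18.7 and 17.8 CPM (log2 fold change −1.41 ± 0.25, edgeR adjusted p = 0.126), and the desmosome plaque gene PKP2 at 57.7, 29.3 and 26.8 CPM (log2 fold change −1.04 ± 0.25, edgeR adjusted p = 0.225). DSG2, a desmosomal cadherin chosen after its values were seen, was at 212, 120.3 and 179 CPM. Of 17 measured tight junction genes, 0 were higher and 2 were lower in both hairpins (0% and 11.8%), with medians of −0.42 and −0.21. The 2 were F11R, an adhesion molecule of the junction, at 44.6, 22.6 and 27.6 CPM and the scaffold gene CGN at 13.4, 6.05 and 8.51 CPM.

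Of 31 measured genes of the actin cytoskeleton, 0 were higher and 7 were lower in both hairpins (0% and 22.6%), with medians of −0.40 and −0.56. CALD1, which encodes the actin-binding protein caldesmon, was at 313, 153 and 167 CPM. For the smooth muscle genes TAGLN and ACTG2 the hairpins stood apart, with TAGLN at 30.99, 14.2 and 3.79 CPM and ACTG2 at 10.8, 3.61 and 1.15 CPM. YAP and TEAD proteins drive growth and cytoskeletal genes. Of 24 measured YAP targets, 0 were higher and 3 were lower in both hairpins (0% and 12.5%), with medians of −0.33 and −0.59: PTPN14, itself an inhibitor of YAP, was at 167, 71.7 and 80.6 CPM (log2 fold change −1.14 ± 0.24, edgeR adjusted p = 0.187), and ANKRD1 at 73.03, 39.5 and 14.5 CPM (log2 fold change −1.43 ± 0.63, edgeR adjusted p = 0.652). TEAD1, the DNA-binding partner of YAP, was at 586, 291 and 269.9 CPM, and was chosen after its values were seen.

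Trophoblast markers fixed for the cell check summed to 459.8, 88.02 and 29.5 CPM. ALPP made up most of each sum, while TFAP2C, a transcription factor of the trophoblast, was at 7.49, 10.9 and 7.22 CPM and the hormone subunit gene CGA at 0.518, 2.75 and 0.7296 CPM. Placental genes had the highest share of lower members of any list with 10 or more measured, 0 were higher and 7 were lower in both hairpins (0% and 58.3%), with medians of −0.62 and −1.13, of 12 measured. That share counts related neighbours singly: ALPP, ALPG and ALPI lie side by side, as do PSG4 and PSG5. Fragments may be shared within each group, so the 7 are not separate observations. Only 12 of 32 listed genes were measured, by a mean that includes Control. A gene high chiefly in Control, such as ALPG, can enter through that value and is then lower by selection. ALPP, placental alkaline phosphatase, was at 452, 73.95 and 20.96 CPM (log2 fold change −3.25 ± 1.00, edgeR adjusted p = 0.62), and its neighbour and near copy ALPG at 16.4, 1.16 and 0 CPM. The hairpins differ by several-fold in ALPP, and the edgeR test did not call it. Summed with ALPG, so that fragments shared between the copies stay together, the level was 468, 75.1 and 20.96 CPM. PAPPA, a protease that cleaves IGF-binding proteins, was at 54.8, 21.1 and 35.1 CPM, and XAGE2, a cancer-testis antigen gene, at 15.7, 9.97 and 4.56 CPM.

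Cholesterol levels are held by SREBP transcription factors, which switch on genes of synthesis and uptake. Of 28 measured genes, 0 were higher and 6 were lower in both hairpins (0% and 21.4%), with medians of −0.38 and −0.17. INSIG1 (chromosome 7, 155297878 to 155310235), which holds SREBP precursors in the endoplasmic reticulum and is itself an SREBP target, was at 63.4, 19.9 and 20.9 CPM, with −1.67 and −1.60 (log2 fold change −1.64 ± 0.25, edgeR adjusted p = 0.0608). SREBF2, the gene of that transcription factor, was at 135, 74 and 74.9 CPM. The sterol carrier STARD4 differed by −1.52 and −0.85 (log2 fold change −1.15 ± 0.31, edgeR adjusted p = 0.276). HMGCS1, an early enzyme of synthesis, was at 76.5, 69.5 and 85.5 CPM, not 1.5-fold from Control in either hairpin. SREBF2 and HMGCS1 were chosen after their values were seen. Of 22 measured genes of fatty acid and triglyceride synthesis, 0 passed in either direction.

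Of 24 measured genes of the glutathione and thioredoxin systems, 0 were higher and 2 were lower in both hairpins (0% and 8.33%), with medians of 0.21 and −0.09. These were TXNRD1, thioredoxin reductase, at 1421, 693 and 686 CPM (log2 fold change −1.04 ± 0.28, edgeR adjusted p = 0.276), and GCLC, the catalytic subunit that begins glutathione synthesis, at 72.4, 44.3 and 44.7 CPM (log2 fold change −0.70 ± 0.24, edgeR adjusted p = 0.391). Their transcription factor gene NFE2L2, which encodes NRF2, was at 159, 103 and 83.3 CPM (log2 fold change −0.77 ± 0.26, edgeR adjusted p = 0.375). It was the only one of 30 measured ferroptosis genes to pass 1.5-fold in both hairpins, 3.33% against a background of 5.4%. GPX4, which reduces lipid peroxides, was at 151, 199.7 and 141 CPM, and SLC7A11, the cystine carrier, at 313, 392 and 530.1 CPM. ACSL4, which supplies the oxidisable lipids, was at 191, 153 and 189.9 CPM, and these 3 were chosen after their values were seen. Of 23 measured aldo-keto reductases and aldehyde dehydrogenases, 0 were higher and 4 were lower in both hairpins (0% and 17.4%), with medians of −0.08 and −0.29. AKR1C3 was at 35.3, 13.6 and 17.6 CPM (log2 fold change −1.18 ± 0.27, edgeR adjusted p = 0.214), and AKR1C1, AKR1C2 and AKR1C3 summed to 41.04, 14.96 and 19.9 CPM.

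Inflammatory cytokine genes lay on both sides of Control. IL1 family cytokines act through NF-kB to induce other cytokines, and IL6 family cytokines act through STAT3. IL1A was at 12.9, 2.86 and 2.37 CPM, with −2.16 and −2.43 (log2 fold change −2.30 ± 0.34, edgeR adjusted p = 0.0571), and IL1B at 4.05, 0.808 and 1.19 CPM. IL6 (chromosome 7, 22727200 to 22731998) was higher, at 24.3, 66.2 and 82.7 CPM, with 1.44 and 1.77 (log2 fold change 1.61 ± 0.29, edgeR adjusted p = 0.124). IL11, another STAT3 cytokine, was at 3.03, 10.2 and 5.75 CPM (log2 fold change 1.39 ± 0.43, edgeR adjusted p = 0.35), and CXCL8, a chemokine for neutrophils, at 7.27, 11.6 and 28.4 CPM (log2 fold change 1.46 ± 0.56, edgeR adjusted p = 0.514). Neither of 2 feedback genes was 1.5-fold from Control: NFKBIA, the feedback inhibitor of NF-kB, was at 89.5, 75.7 and 81.3 CPM, and SOCS3, the feedback inhibitor of STAT3, at 78.97, 73.7 and 59.8 CPM. Of 35 measured IL1 and NF-kB genes, 2 were higher and 4 were lower in both hairpins (5.71% and 11.4%), with medians of 0.06 and 0.06, and of 16 measured IL6 and STAT3 genes, 2 were higher and 1 was lower in both hairpins (12.5% and 6.25%), with medians of −0.17 and −0.10. SOCS2, a feedback inhibitor of cytokine and growth hormone receptors, was higher at 12.3, 29.3 and 31.5 CPM, with 1.25 and 1.35 (log2 fold change 1.30 ± 0.28, edgeR adjusted p = 0.187). IL1B, NFKBIA and SOCS3 were chosen after their values were seen.

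The promoters of IL1A, CXCL8 and IL11 are shown because these genes lay on different sides of Control and each holds the same AP-1 letters. The motif searched was TGANTCA, which reads the same on both strands and overlaps no other motif searched, and it occurs in 7.76% of 27305 RefSeq promoters of 300 bases. Capitals mark the match. Each sequence is the 250 bases before the start of the gene on its own strand, from RefSeq on GRCh38.p14, at chr2:112784494-112784743 (minus strand), chr4:73740319-73740568 (plus strand) and chr19:55370464-55370713 (minus strand).
IL1A: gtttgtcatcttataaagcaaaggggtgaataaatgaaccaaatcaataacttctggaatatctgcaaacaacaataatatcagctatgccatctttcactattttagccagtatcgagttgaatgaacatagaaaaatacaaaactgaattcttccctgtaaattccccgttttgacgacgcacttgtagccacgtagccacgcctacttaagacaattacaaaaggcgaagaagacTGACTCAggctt
CXCL8: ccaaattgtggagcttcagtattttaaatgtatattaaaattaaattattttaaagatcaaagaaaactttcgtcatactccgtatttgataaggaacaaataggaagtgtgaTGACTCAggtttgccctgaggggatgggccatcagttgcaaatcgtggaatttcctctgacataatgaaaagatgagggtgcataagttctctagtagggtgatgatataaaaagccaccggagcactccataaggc
IL11: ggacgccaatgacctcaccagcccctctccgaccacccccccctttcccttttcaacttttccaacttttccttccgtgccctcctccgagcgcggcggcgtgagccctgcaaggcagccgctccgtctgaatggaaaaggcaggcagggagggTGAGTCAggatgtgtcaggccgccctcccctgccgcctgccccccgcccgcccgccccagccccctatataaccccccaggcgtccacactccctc
The match begins 12 bases before the start in IL1A, 137 in CXCL8 and 96 in IL11. IL1A was lower and CXCL8 and IL11 were higher in both hairpins. IL6, also higher in both, had no match in its promoter.

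Of the 51 lists, the interferon-stimulated genes had the largest number of members higher in both hairpins. By share, germline genes stood above them, with 2 of 11 measured (18.2%). Interferon-stimulated genes are switched on by STAT and IRF transcription factors, which bind interferon-response letters in their promoters. Of 42 measured, 7 were higher and 1 was lower in both hairpins (16.7% and 2.38%), with medians of 0.66 and 0.12. RSAD2, the antiviral protein viperin, was at 17.2, 53.5 and 37.9 CPM (log2 fold change 1.41 ± 0.31, edgeR adjusted p = 0.194). IFIT3, which works in a complex that binds foreign RNA, was at 103, 210.3 and 176 CPM (log2 fold change 0.91 ± 0.27, edgeR adjusted p = 0.326), and IFI44 at 23.6, 69.2 and 40.1 CPM (log2 fold change 1.21 ± 0.36, edgeR adjusted p = 0.326). MX2 was at 1.04, 9.72 and 3.36 CPM and OAS2 at 5.59, 18.5 and 8.53 CPM, in each case higher in hairpin 1 than in hairpin 2. ISG15, a ubiquitin-like modifier, was high in hairpin 1 alone, at 176, 633 and 204 CPM. The factor gene STAT2 was at 39.8, 29.8 and 25.2 CPM. DDX60L, a helicase gene of the same list, was lower, at 55.8, 33.4 and 22.03 CPM (log2 fold change −1.01 ± 0.30, edgeR adjusted p = 0.326). MX2, OAS2, ISG15 and STAT2 were chosen after their values were seen.

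**Figure D4:**
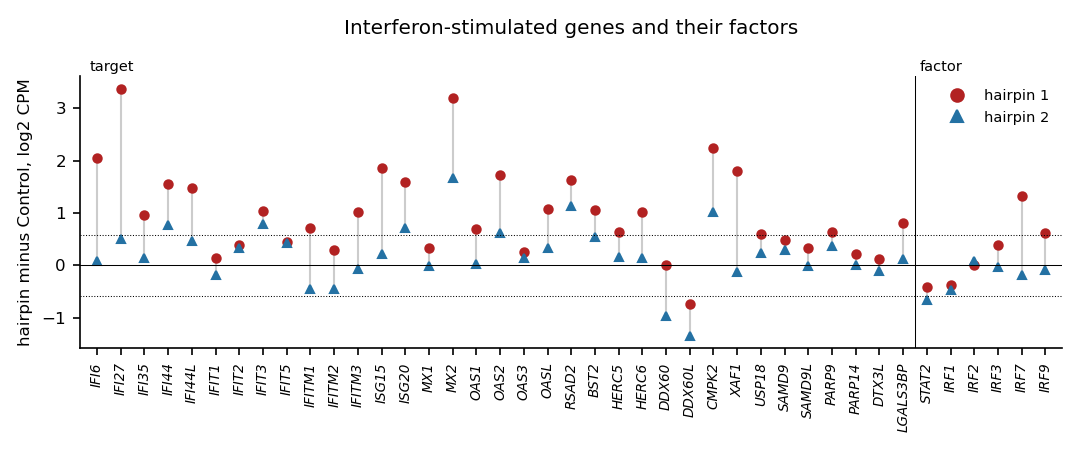
Log2 CPM of each hairpin minus Control for measured interferon-stimulated genes and factors (not all are drawn), with circles for hairpin 1, triangles for hairpin 2 and dotted lines at 1.5-fold. Over all 42 measured, hairpin 1 had a median of 0.66 against 0.12 for hairpin 2, and DDX60L lies under Control in both.

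The promoters of IFIT3, IFI44 and DDX60L are shown because all carry the interferon-response letters while DDX60L lay on the other side of Control. The motif searched was TTTC, any 2 bases and TTTC again, on both strands, without overlap with the AP-1 letters, and it occurs in 3.65% of the 27305 promoters. Capitals mark the match, which can be on either strand. The sequences are the 250 bases before the start, on the gene's strand, at chr10:89327747-89327996 (plus strand), chr1:78649539-78649788 (plus strand) and chr4:168480493-168480742 (minus strand).
IFIT3: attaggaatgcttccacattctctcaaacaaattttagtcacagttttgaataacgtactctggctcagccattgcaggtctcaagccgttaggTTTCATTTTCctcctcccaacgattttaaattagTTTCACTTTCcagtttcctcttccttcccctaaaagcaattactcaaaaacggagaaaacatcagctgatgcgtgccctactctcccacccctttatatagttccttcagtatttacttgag
IFI44: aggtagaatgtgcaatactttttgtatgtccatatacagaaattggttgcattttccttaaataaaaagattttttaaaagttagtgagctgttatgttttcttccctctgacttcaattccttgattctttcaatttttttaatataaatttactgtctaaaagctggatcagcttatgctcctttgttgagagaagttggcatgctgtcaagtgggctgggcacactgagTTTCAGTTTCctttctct
DDX60L: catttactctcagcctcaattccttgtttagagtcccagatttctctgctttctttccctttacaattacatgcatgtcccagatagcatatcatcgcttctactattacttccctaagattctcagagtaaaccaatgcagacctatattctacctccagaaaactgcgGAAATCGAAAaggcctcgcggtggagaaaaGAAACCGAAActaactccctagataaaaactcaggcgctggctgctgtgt
IFIT3 holds 2 matches, which begin 156 and 122 bases before the start, IFI44 1 match at 18 bases, and DDX60L 2 matches at 80 and 50 bases. Not every higher gene of the list has one: RSAD2 had no match in its promoter. A share over the higher and lower genes is not given for either motif, because only 143 of the 197 lower and 80 of the 132 higher genes had a promoter in the table, fewer than 80%, which leaves that check void.

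Of 31 measured ephrin, semaphorin and netrin genes and receptors, 2 were higher and 3 were lower in both hairpins (6.45% and 9.68%), with medians of −0.00 and −0.14. The receptor genes EPHB2, at 16.4, 33.7 and 32.6 CPM (log2 fold change 1.01 ± 0.27, edgeR adjusted p = 0.276), and NRP1, at 12.9, 22.5 and 28.6 CPM (log2 fold change 0.98 ± 0.29, edgeR adjusted p = 0.334), were higher, while the secreted cues SEMA3C, at 102, 42.97 and 55.8 CPM (log2 fold change −1.05 ± 0.25, edgeR adjusted p = 0.232), and NTN4, at 108, 52.2 and 58.3 CPM (log2 fold change −0.96 ± 0.24, edgeR adjusted p = 0.236), were lower. NRG1, a ligand of ERBB receptors, was at 77.2, 45.1 and 43.5 CPM, and its receptor gene ERBB3 at 7.94, 2.45 and 3.05 CPM. WNT5A, a WNT of the pathway branch without beta-catenin, was at 201, 121 and 87.4 CPM, the only 1 of 27 measured WNT genes to pass. The cationic amino acid carrier SLC7A2 was at 73.98, 33 and 36.1 CPM (log2 fold change −1.10 ± 0.24, edgeR adjusted p = 0.187), and IRS2, the insulin receptor substrate, at 135, 83.5 and 86.01 CPM (log2 fold change −0.67 ± 0.24, edgeR adjusted p = 0.431). ERBB3 was chosen after its values were seen.

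Genes that were higher in both hairpins and well measured were fewer: with a mean of at least 5 CPM, 34 genes were 2-fold higher and 110 were 2-fold lower. C1R, a protease of the first complement component, was at 38.6, 71.9 and 69.9 CPM (log2 fold change 0.88 ± 0.26, edgeR adjusted p = 0.321). ABCA3, a lipid transporter, was at 25.8, 43.99 and 52.9 CPM (log2 fold change 0.91 ± 0.28, edgeR adjusted p = 0.35), and BAD, a pro-apoptotic BCL2 family member, at 28.7, 48.2 and 45.96 CPM (log2 fold change 0.71 ± 0.26, edgeR adjusted p = 0.447). Among the 12 genes furthest above Control in both hairpins, IQCK was at 5.72, 15.6 and 16.9 CPM, KCNK15, a potassium channel gene, at 5.69, 13.2 and 13.5 CPM, and DPCD at 16.7, 37.6 and 35.5 CPM. UBXN11 was at 13.9, 28.6 and 31.2 CPM, ZNF37BP at 7.72, 17.6 and 24.6 CPM and IGFN1 at 4.38, 11.5 and 25.5 CPM. CNPY4, which overlaps TAF6, was at 6.8, 14.6 and 14.2 CPM, and SURF2 at 8.32, 18.2 and 17.3 CPM. TALAM1, an RNA antisense to MALAT1 whose reads may not be separable from it, had 10, 2472 and 119 counts, so it was far higher in hairpin 1 than in hairpin 2. No gene in this paragraph passed the edgeR test.

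Lower genes outside the lists included several with close values in the hairpins. GRIK2, a glutamate receptor subunit gene, was at 23.1, 5.996 and 6.64 CPM, with −1.94 and −1.80 (log2 fold change −1.87 ± 0.29, edgeR adjusted p = 0.0642), and LAMP3, a lysosomal membrane protein gene, at 30.2, 8.99 and 7.74 CPM, with −1.75 and −1.96 (log2 fold change −1.85 ± 0.27, edgeR adjusted p = 0.0571). EDIL3, a secreted integrin ligand, was at 219.8, 71.5 and 75.97 CPM (log2 fold change −1.58 ± 0.24, edgeR adjusted p = 0.0608), and FSTL1, a secreted glycoprotein, at 501, 197 and 114 CPM (log2 fold change −1.69 ± 0.33, edgeR adjusted p = 0.157). The clock genes PER1 and NR1D2 were at 75.6, 33.6 and 29.2 CPM and 98.4, 46.8 and 48.8 CPM, and BCL6, a transcriptional repressor, at 35.8, 15.4 and 15.5 CPM. TNPO1, a nuclear import receptor, was at 875, 363 and 416 CPM, and XPOT, the exportin of transfer RNA, at 559.9, 273 and 260.1 CPM. Except for GRIK2 and LAMP3, these were chosen after their values were seen.

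Several stress and metabolic programs showed no member past 1.5-fold in both hairpins. This held for 32 measured genes of the integrated stress and unfolded protein responses, 19 of glycolysis, 17 of serine and one-carbon metabolism, 18 metallothionein and zinc transporter genes, 22 of class I antigen presentation and 14 sensors of foreign nucleic acid, with 0 in each. ATF4, the main factor of the integrated stress response, was at 612, 634 and 499 CPM, HSPA5, the chaperone BiP, at 1701, 1261 and 1074 CPM, and LDHA at 1731, 1968 and 1463 CPM, all chosen after their values were seen. Of 49 cell cycle genes, 1 was lower, CDK2 at 175, 112 and 79.97 CPM (log2 fold change −0.87 ± 0.28, edgeR adjusted p = 0.364). Of 27 measured p53 targets, 0 were higher and 2 were lower in both hairpins (0% and 7.41%), with medians of −0.50 and −0.03. Their lower share rests on 2 genes, lay near the 5.4% background and is no result about the list. Only 11 of 55 germline genes reached 1 CPM. Of those, 2 were higher and 1 was lower in both hairpins (18.2% and 9.09%), with medians of 0.10 and 0.09, with SYCE2, a component of the meiotic synaptonemal complex, at 4.44, 8.08 and 7.504 CPM and MAGEB2 at 96.4, 63.2 and 43.1 CPM.

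Of the 197 lower genes, 93.4% were protein-coding in RefSeq and 3.55% were long noncoding RNAs, against 91.6% and 4.77% of all 13137. Of the 132 higher genes, 71.97% were protein-coding, 14.4% were long noncoding RNAs and 9.09% were read-through loci, against 0.685% read-through loci overall. The median level over the 3 libraries was 6.24 CPM in the lower, 2.05 in the higher and 33.02 in all genes, so higher genes rested on fewer fragments. The longest GENCODE transcript had a median of 4114 bases in the lower, 2880 in the higher and 3641 in all genes, with a length found for 96.5%, 88.6% and 96.3%. No test was made of these features.

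Along the chromosomes, 42 runs of 2 and 8 runs of 3 adjacent measured genes were at least 1.5-fold lower in both hairpins, and 20 runs of 2 and 1 run of 3 were higher. Adjacent here means next in order among measured genes, with unmeasured genes, read-through loci and structural RNAs skipped. With 5.4% of all genes lower and 3.48% higher, some runs arise in any gene order. No count for a shuffled order was made, so the number of runs is no result about clustering. The runs of 3 on chromosome 2 were RHBDD1, COL4A4 and COL4A3 (226800159 to 227314792) and ALPP, ALPG and ALPI (232378751 to 232460753). On chromosome 10, KLF6, AKR1C1 and AKR1C3 made another. RHBDD1 overlaps COL4A4, and the alkaline phosphatase and AKR1C genes are near copies, so fragments may be shared within these runs.

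The SETDB1 knockdown library allowed a direct test of whether the 2 knockdowns differed. Over all genes edgeR called 28 of 16900 (0.166%) between SETDB1 and ATF7IP knockdown, 18 higher (0.107%) and 10 lower (0.0592%) with SETDB1 depleted, and the differences below are SETDB1 minus ATF7IP knockdown on the log2 scale. TGFBR2 was at 72.1 CPM in SETDB1 knockdown, above Control, and differed from ATF7IP knockdown by 2.49 ± 0.25, edgeR adjusted p = 0.00692. ANXA1 was at 317 CPM, again above Control, with a difference of 3.04 ± 0.28, edgeR adjusted p = 0.00636. LUM at 92.5 CPM (1.83 ± 0.23, edgeR adjusted p = 0.0247) and TIMP3 at 175 CPM (2.28 ± 0.30, edgeR adjusted p = 0.0299) were likewise higher than in ATF7IP knockdown. C1R went the other way, at 15.3 CPM with −2.21 ± 0.28, edgeR adjusted p = 0.0247. Other lower genes were low in the SETDB1 library too, without a call between the knockdowns: INSIG1 was at 21.1 CPM (0.05 ± 0.26, edgeR adjusted p = 0.983), COL15A1 at 9.43 (−0.26 ± 0.31, edgeR adjusted p = 0.867), IL1A at 3.11 (0.25 ± 0.35, edgeR adjusted p = 0.9) and FN1 at 151 (−0.02 ± 0.27, edgeR adjusted p = 0.995). MAMDC2 lay between, at 17.6 CPM (1.62 ± 0.27, edgeR adjusted p = 0.0885). In that library SETDB1 was at 11.99 CPM and ATF7IP at 97.8 CPM. The SETDB1 side is 1 library, and the same hairpin libraries chose these genes.

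A pair of calls fell outside the 13137 genes, both lower: DISC1, a scaffold protein gene, with 125, 4 and 3 counts, and the read-through locus CCDC169-SOHLH2, with 121, 0 and 0. The remaining edgeR calls among the 13137 genes were at loci that share fragments with others or encode structural RNA. NDUFC2-KCTD14, a read-through locus, had 1111, 0 and 0 counts, but summed with NDUFC2, the respiratory chain subunit gene it overlaps, the level was 205, 257 and 242 CPM. The read-through locus TNFSF12-TNFSF13 had 0, 268 and 504 counts, and NPIPA7, of a family of near-identical genes, 0, 167 and 128. RN7SL2, a gene for the RNA part of the particle that guides secreted proteins, had 0.891, 6.04 and 6.41 CPM (log2 fold change 2.80 ± 0.36, edgeR adjusted p = 0.0492). RN7SL genes took 0.000225%, 0.00118% and 0.00127% of all counts and ribosomal RNA genes 0.325%, 0.489% and 0.408%, both lowest in Control, and their part in the RN7SL2 call was not tested.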

How the data were processed

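RNA from 4 libraries was sequenced after selection for poly(A). The build hg38 and the tools DESeq2 1.34.0, StringTie 2.2.1 and HISAT2 2.2.1 come from the submitters' processing notes, with no step assigned to any. No annotation is named there. Per gene the deposited table holds estimated counts, expected counts in whole numbers. Low values pile up at multiples of 4, so 1 fragment was taken to give about 4 counts, which no source states. A floor of 3 fragments, or 12 counts, marks the limit of detection and covers counting error only.

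CPM and log2 differences (prior count 2, TMM factors over all 4 libraries) were computed here with edgeR 4.0.16 in R 4.3.3. The edgeR quasi-likelihood test used all 4 libraries in 3 groups (filterByExpr, minimum count 10, robust, 1 residual degree of freedom) with Benjamini-Hochberg adjustment over 16900 genes, and a call is an adjusted p under 0.05. Errors printed with ± are standard errors of its log2 fold changes. Nothing says that the libraries came from separate cultures, so p-values measure the spread between these 2 hairpin libraries, which may be technical. The code was tested on simulated data. Alternatives used DESeq2 1.42.0, limma 3.58.1, other scalings, filters and prior counts.

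The genes, gene lists and tests were chosen with earlier results of these data known. Genes eligible to be named were ATF7IP, SETDB1, CYB5R2, PARK7, all calls, the 12 furthest from Control in each direction by the smaller of the 2 hairpins' differences (mean of at least 10 CPM) and up to 4 per list (mean of at least 5 CPM, 1.5-fold in both hairpins). Families of near copies left out of the 12 were listed after the files were seen, and others are marked in the text as chosen after their values were seen. The promoters printed were also chosen so. Positions and promoters are RefSeq, GRCh38.p14, matched by symbol for 26998 of 28278 genes. Whether counting used strand is not given in the sources used here, so values of genes that overlap others (RSAD2 with CMPK2, IFIT3 with LIPA, BAD with GPR137, IQCK with GPRC5B, TAGLN with PCSK7) are uncertain. Values of some genes of the lists are not reported here, though counts and medians of the lists include them.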

Additional observations from a re-analysis of the deposited data

How the results depend on the processing

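The number of edgeR calls depended on the test settings more than the 2-fold counts did. With DESeq2 size factors there were 3 calls (1 higher, 2 lower), with library totals 25 (7 and 18), with no filter on low counts 1 (0 and 1), without the SETDB1 knockdown library 34 (6 and 28), with counts divided by 4 83 (13 and 70), with DESeq2's Wald test 162 (35 and 127), with limma-trend 5 (3 and 2) and without read-through loci and structural RNAs 29 (5 and 24). All 13 calls were shared with library totals, without the SETDB1 library, with counts divided by 4 and with the Wald test, 4 with limma-trend and 9 without read-through loci and structural RNAs. The calls not among those 9 are themselves read-through loci or a structural RNA, which that last setting removes. Among the genes eligible to be named, no fitted fold change changed sign over the 7 alternative tests. The hairpins themselves could differ in sign, as for SETDB1, with 0.13 in hairpin 1 and −0.03 in hairpin 2. The balance of directions turned with limma-trend (3 higher, 2 lower) and, for the fold counts, at 3-fold. Of 51 list medians, 11 changed sign with 1 hairpin left out, none of them above 0.108 in size over both hairpins. The cause of these differences was not tested. Library totals moved the median of all genes to 0.0025 in hairpin 1 and 0.0729 in hairpin 2. The count of genes 2-fold in both hairpins was 144 (34 higher, 110 lower) at a mean of at least 5 CPM and 92 (49 and 43) at 3-fold. With 1 hairpin left out it ranged from 633 to 760 in all, from 260 to 274 higher and from 373 to 486 lower; edgeR was not run there, since no residual degree of freedom is left. No paired analysis was possible because Control and SETDB1 knockdown have 1 library each, so the groups share fewer than 2 replicate numbers. The single Control library limits every fold.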
